A study of Mus musculus with 9 samples.

Results

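Macrophages recognise and swallow dying cells through receptors that read phosphatidylserine, a lipid exposed on the outer face of a dying cell's membrane, either directly or through a soluble bridging molecule. The uptake, called efferocytosis, is described here for 10 genes chosen by symbol: the TAM receptor tyrosine kinases Mertk, Axl and Tyro3, their ligands Gas6 and Pros1, the integrin bridge Mfge8, the integrin subunits Itgav and Itgb5, and the receptors Stab1 and Cd300lf. All 10 were found among the 54281 genes of the deposited table, and all 10 had enough counts to be among the 15713 genes tested. RNA was sequenced from lung macrophages collected by lavage, with massage of the lung, from female wild-type mice aged 12 weeks, of a strain the labels do not name. The 3 groups were air-exposed controls, mice killed 24 h after ozone and mice killed 72 h after ozone, with 3 mice in each, and ozone was given at 0.8 ppm for 3 h. Each library is 1 mouse. Macrophages were enriched by lavage and not sorted, so a bulk level can change with the mix of cells as well as with RNA per cell, and the 2 cannot be told apart.

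In the resting mouse lung the main lavage cell is the alveolar macrophage, which is known for carrying Axl and Mertk and for clearing dying cells without inflammation. Gas6 binds all 3 TAM receptors, while Pros1, also known as protein S of blood clotting, activates Mertk and Tyro3. Mfge8, a secreted milk fat globule protein, ties phosphatidylserine to integrins built on the alpha v subunit encoded by Itgav, which pairs with the beta 5 subunit encoded by Itgb5. Stab1 (stabilin-1) is a scavenger receptor and Cd300lf an inhibitory receptor, and both can bind phosphatidylserine themselves.

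Mfge8 and Cd300lf were the members whose difference between groups passed the test in at least 1 comparison, and their promoters are shown for that reason. Each stretch runs 5′ to 3′ on the gene's strand, from 250 bases before the RefSeq start site to 50 after it, and is credited to RefSeq on GRCm38.p6. Capitals mark the PU box core GAGGAA or its reverse complement TTCCTC, the letters bound by PU.1, the lineage factor of macrophages.
Mfge8 (chr7:79149011-79149310, minus strand): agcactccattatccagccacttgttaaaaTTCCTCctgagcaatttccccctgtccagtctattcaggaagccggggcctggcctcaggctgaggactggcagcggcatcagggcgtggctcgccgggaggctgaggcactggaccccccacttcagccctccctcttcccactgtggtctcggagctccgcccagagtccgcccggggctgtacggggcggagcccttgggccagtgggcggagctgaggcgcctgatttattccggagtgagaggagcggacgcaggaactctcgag
Cd300lf (chr11:115133943-115134242, minus strand): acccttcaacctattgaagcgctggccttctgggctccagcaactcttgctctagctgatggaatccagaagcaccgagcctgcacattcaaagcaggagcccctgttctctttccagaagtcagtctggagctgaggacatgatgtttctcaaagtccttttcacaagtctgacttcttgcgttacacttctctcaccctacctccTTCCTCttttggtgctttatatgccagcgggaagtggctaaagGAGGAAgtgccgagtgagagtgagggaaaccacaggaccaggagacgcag
In Mfge8 the box began at position -220 from the start site, on the opposite strand (the gene spans 79133768 to 79149060 on chromosome 7). In Cd300lf it occurred at -43 on the opposite strand and at 1 on the gene's own strand (the gene spans 115116214 to 115133992 on chromosome 11). GAGGAA, searched on both strands, was in the promoters of 5 of 10 members (Axl, Mfge8, Stab1, Cd300lf and Itgav) and in 28.3% of all 32851 promoters of this length. TATAAA, searched the same way, was in the Cd300lf promoter alone among the 10, at -28 on the opposite strand, against 13.6% of all promoters. The nuclear receptor half-site AGGTCA was in none of the 10, against 16.3% of all promoters. These are matches of letters and not measured binding.

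Libraries held 47095543 to 60248305 estimated counts, and levels are CPM, counts scaled to a common library size after TMM normalization. All 15 markers of resident alveolar macrophages were detected in all 9 libraries, and their sum was 34024 to 36064 CPM in air, 23015 to 31771 at 24 h and 26339.8 to 31315 at 72 h. Most of that sum is Chil3, at 14809 to 24837 CPM over the 9 libraries, so it follows that gene above all. A pair of libraries stood apart, 24 h replicate 2 and 72 h replicate 1. Their B cell markers summed to 1642 and 911 CPM, against 2.01 to 12.1 in the other 7 libraries, and their Prg4, a marker of serous cavity macrophages, was 317 and 402 CPM against 0.561 to 1.24. They also had the lowest alveolar macrophage marker sum of their groups, at 0.759 and 0.848 times the mean of the other libraries of the group. Air replicate 2 had 2.42 CPM of Xist, the RNA of the inactive X chromosome, against 887 to 1482 in the other 8, which goes against its label as female. T cell markers summed to 599 and 69.1 CPM in the pair and to 4.06 to 13.5 in the other 7, with all 10 T cell markers detected in every library. Red cell markers summed to 2909 and 2510.4 CPM in the pair against 12.2 to 855, the 855 in 24 h replicate 1. Monocyte markers were at 288 and 205 against 43.9 to 64.5, and neutrophil markers at 193 and 167 against 62.3 to 86.3. Endothelium and fibroblast markers were at 58.6 and 28.4 against 0.492 to 7.09. Sums for dendritic cells and lung epithelium were not above the other 7, nor was that for interstitial macrophages, mostly Mrc1. Gata6, the factor that defines serous cavity macrophages, was at 2.57 and 3.29 CPM in the pair, and at 0 in air replicates 1 and 3. Several results that rest on the pair or on air replicate 2 are given with and without them, but not all.

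The order of the members was nearly the same at each time. To compare genes, counts were divided by exon length and scaled to a common total, as TPM. In air, Axl stood first at 1336 ± 33.9 TPM (SD, n = 3), above 99.5% of the genes tested, and Mertk (311 ± 31.7) and Pros1 (304 ± 25.7) followed with overlapping libraries. Itgb5 (207 ± 3.74) and Cd300lf (190.4 ± 27.5) also overlapped each other. Itgav (17.1 ± 1.52) and Mfge8 (9.08 ± 1.5) lay far lower and apart. Stab1 (0.438 ± 0.0753) and Gas6 (0.401 ± 0.129) overlapped near the floor, and Tyro3 (0.0698 ± 0.04) came last, above only 2.43% of genes. At 24 h Pros1 and Mertk, and Gas6 and Stab1, changed places, with overlapping libraries in both pairs. With the length of the longest coding transcript in place of all exons, a choice made after seeing the data, Cd300lf in air was 387 TPM and Mfge8 14.9 TPM, so the rank of Cd300lf against Mertk and Pros1 depends on the length used.

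**Figure D1:**
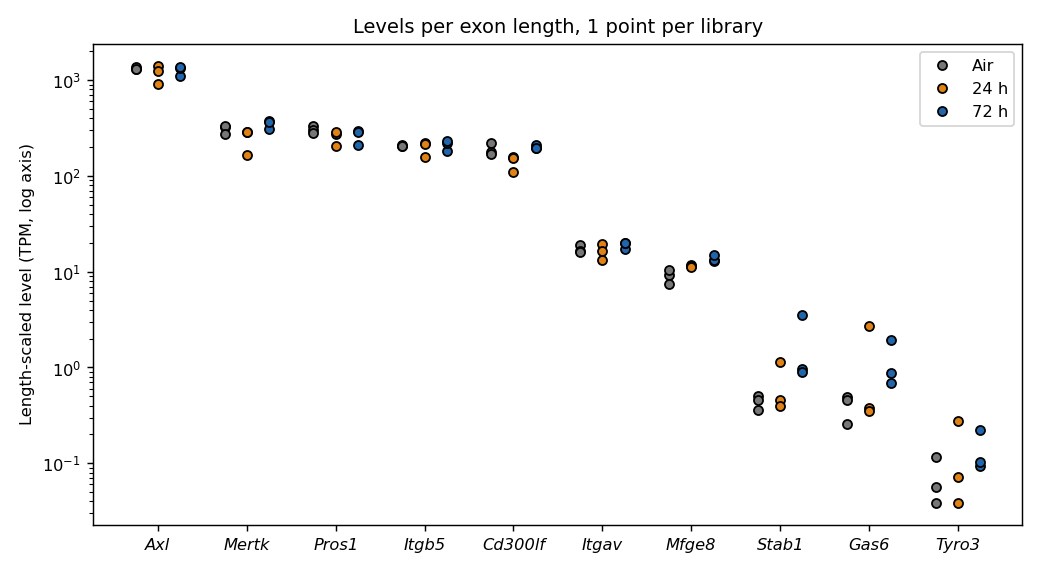
Level per exon length (TPM, log axis) of the 10 genes, 1 point per library, with the groups air, 24 h and 72 h after ozone. Axl is first in every group and Tyro3 last, and the spread between groups is small beside the spread between genes.

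Among the TAM receptors, Axl was the main transcript and its level was not shown to differ at either time. Axl had 2199.8, 2302 and 2207 CPM in the air libraries, 2369, 1638 and 2069.8 in those at 24 h, and 1894, 2109.8 and 2218 in those at 72 h. The 3 groups overlapped, and the log2 fold changes were -0.14 ± 0.13 (SE) at 24 h against air and -0.11 ± 0.13 at 72 h against air. By edgeR's quasi-likelihood test with Benjamini-Hochberg adjustment over all genes, used for every adjusted p here, these gave 0.591 and 0.631.

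Mertk, the receptor most tied to uptake by macrophages, was at 471, 478 and 398 CPM in the air libraries, 413, 254 and 409.8 in those at 24 h, and 457, 514 and 511 in those at 72 h. All 72 h libraries lay above all 24 h libraries, while 72 h and air overlapped. The log2 fold change was 0.46 ± 0.18 at 72 h against 24 h (95% interval 0.06 to 0.86, adjusted p = 0.104), and -0.32 ± 0.18 at 24 h against air (-0.72 to 0.08, adjusted p = 0.394). The 24 h value against air was -0.13 without 24 h replicate 2 and -0.12 without the pair of libraries that stood apart. DESeq2 called 72 h against 24 h (adjusted p = 0.0413), as did edgeR without the pair of libraries that stood apart (log2 fold change 0.34, adjusted p = 0.0431), but not when air replicate 2 was left out too (0.33, adjusted p = 0.0518). Its difference at 72 h against air was 0.14 ± 0.18 (adjusted p = 0.646).

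The ratio of Axl to Mertk within a library does not depend on how libraries are scaled. It was 4.03, 4.15 and 4.77 in the air libraries, 4.94, 5.55 and 4.35 in those at 24 h, and 3.57, 3.53 and 3.74 in those at 72 h. The 72 h ratios were the 3 lowest, below every air and every 24 h library, including in the 72 h library that carried B cell markers. The highest ratio, 5.55, was from 24 h replicate 2, which also carried them, and the 24 h ratio of 4.35 lay within the air range. The mean log2 ratio was 1.85 ± 0.04 at 72 h and 2.11 ± 0.13 in air (SD, n = 3 each), a difference of -0.25 with an exact two-sided permutation p of 0.1, the smallest that 3 against 3 mice allow (0.15 adjusted over the 3 comparisons). Against 24 h (2.30 ± 0.17, n = 3) the difference was -0.45, with the same exact p of 0.1. At 24 h against air the difference was 0.19, in the other direction, with an exact p of 0.2. The ratio was chosen after the levels were seen. As a share of the summed TAM receptor TPM, Mertk made up 17.3 to 19.9% in air, 15.3 to 18.7% at 24 h and 21.1 to 22.1% at 72 h.

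Tyro3, the TAM receptor best known from brain and retina, was at the limit of what the depth allows. It had 4, 14 and 7 counts in the air libraries, 4, 29 and 7 in those at 24 h, and 24, 10 and 10 in those at 72 h. The highest counts were those of the pair of libraries that stood apart. The differences of 0.92 ± 0.78 at 24 h and 0.98 ± 0.78 at 72 h against air were not called (adjusted p = 0.558 and 0.450), and the interval at 72 h ran from -0.79 to 2.75. The 72 h value was 0.43 without the pair and 0.41 without 72 h replicate 1 alone, and the 24 h value was -0.35 without the pair.

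Of the TAM ligands, Pros1 was abundant and Gas6 nearly absent, with a Pros1 to Gas6 ratio in TPM of 75.6 to 1105 over the 9 libraries. Pros1 had 448, 408 and 383 CPM in the air libraries, 369.6, 301 and 384 in those at 24 h, and 294, 376 and 381 in those at 72 h. All 72 h libraries lay just below all air libraries, and 24 h overlapped with both groups. The log2 fold change was -0.24 ± 0.13 at 72 h against air (adjusted p = 0.279) and -0.23 ± 0.13 at 24 h against air (adjusted p = 0.400), so neither was called.

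Gas6 had 0.414, 0.389 and 0.216 CPM in the air libraries, 0.32, 2.48 and 0.295 in those at 24 h, and 1.69, 0.552 and 0.714 in those at 72 h. The 72 h libraries all lay above those of air, and the 2.48 and 1.69 CPM were from the libraries that stood apart. The log2 fold change at 72 h against air was 1.53 ± 0.87 (-0.48 to 3.55, adjusted p = 0.303). It was 0.92 without that pair (adjusted p = 0.130). At 24 h against air it was 1.60 ± 0.88 (adjusted p = 0.397) with all libraries and -0.13 without the pair, so the direction at 24 h depended on 24 h replicate 2. A stretch of 34 exon bases of Gas6 (1.33%) overlaps Tmem255b on the opposite strand.

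**Figure D2:**
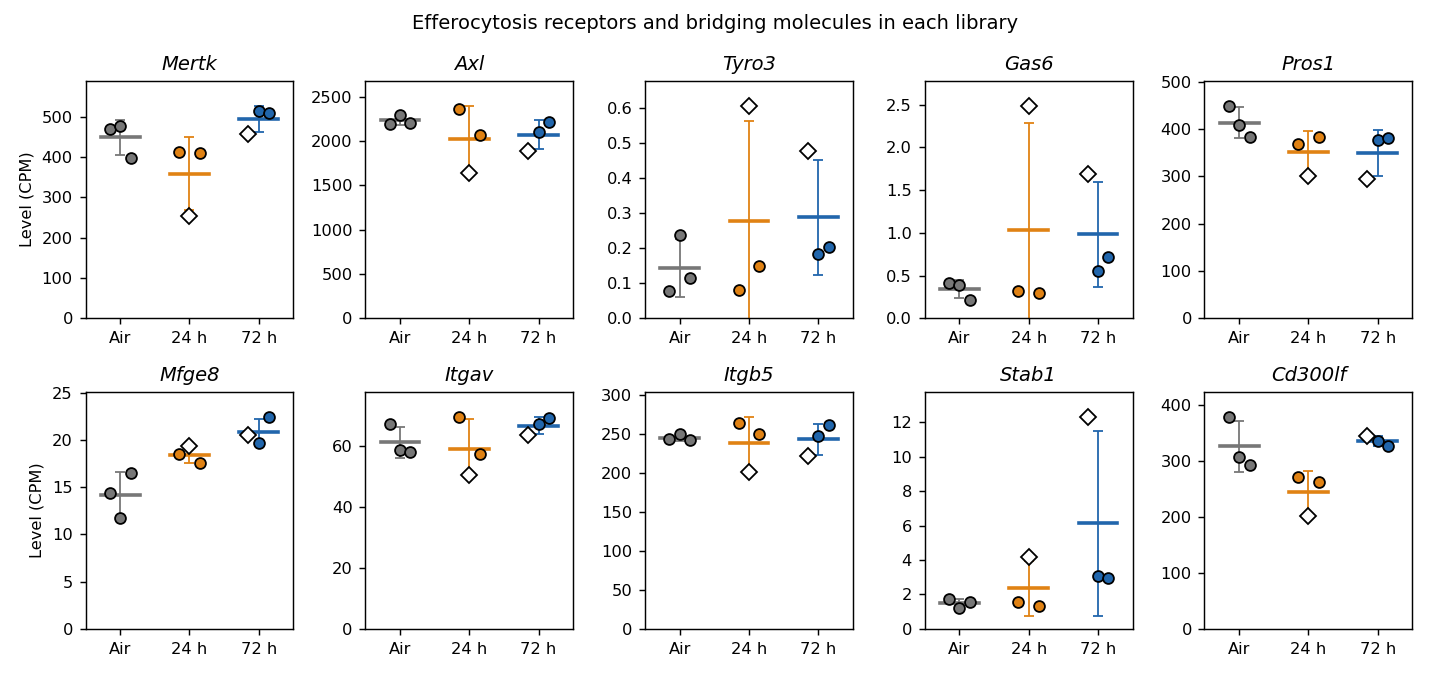
Level (CPM, axis from 0) of each gene in every library by group, with points for libraries, bars for the mean and SD (n = 3), bars clipped at 0 for Gas6 and Tyro3 at 24 h, and open diamonds for 24 h replicate 2 and 72 h replicate 1. The 72 h points of Mfge8 lie above all air points, and the diamonds are the highest points of Gas6, Tyro3 and Stab1 in their groups.

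Mfge8 rose at 72 h. It had 14.4, 11.7 and 16.5 CPM in the air libraries, 18.5, 19.3 and 17.5 in those at 24 h, and 20.5, 19.7 and 22.4 in those at 72 h. No library of 1 group overlapped with those of another, so the levels stood in the order air, 24 h, 72 h. The mean was 20.9 ± 1.35 CPM at 72 h and 14.2 ± 2.37 in air (SD, n = 3 each), a log2 fold change of 0.56 ± 0.12 (95% interval 0.29 to 0.83) or 1.47-fold, with an adjusted p of 0.0364. At 24 h it was 18.4 ± 0.913 CPM against 14.2 ± 2.37 in air, a log2 fold change of 0.38 ± 0.12 that was not called (unadjusted p = 0.0115, adjusted p = 0.227). Between 72 h and 24 h it was 0.18 ± 0.12 (adjusted p = 0.324).

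The joint test over the 3 groups also called Mfge8 (adjusted p = 0.0372), the 1 member called of 10, against 13.2% of all genes. The call at 72 h against air was near the threshold: without the pair of libraries that stood apart it was 0.59 with an adjusted p of 0.0371, and without these and air replicate 2 it was 0.47 with an adjusted p of 0.0623. Of the 9 fits that left out 1 library, 1 kept the call, the fit without 24 h replicate 2 (adjusted p = 0.0231). Leaving out any of the other 8, controls included, ended it (adjusted p 0.0697 to 0.130), with the log2 fold change lowest at 0.43 without air replicate 2. Summed dendritic cell markers, a list of 9 genes all detected, were also higher at 72 h, at 106 to 121 CPM against 51.2 to 64.7 in air. At 24 h they summed to 69.6, 105 and 53.9 CPM, with the 105 from 24 h replicate 2. Batf3 of that list went the other way, at 4.81 to 6.29 CPM at 72 h against 6.65 to 10.1 in air. Other lists moved as well. Endothelium and fibroblast markers summed to 5.91 to 28.4 CPM at 72 h against 0.492 to 1.71 in air. Cdh5 was at 0 in air replicates 1 and 2. Serous cavity macrophage markers summed to 3005 to 5405 against 1354 to 1906. That sum is mostly Fn1, at 2986 and 3323 CPM in 72 h replicates 2 and 3. There Prg4 was 0.736 and 1.24 CPM against 0.689 to 0.832 in air, and F5 0.11 and 0.204 against 0.0507 to 0.449. Others of the list, Thbs1, Timd4 and Gata6 among them, lay above air there, Thbs1 at 11.5 and 13.4 CPM against 1.42 to 2.84. The sum of resident alveolar macrophage markers was lower, at 26339.8 to 31315 CPM at 72 h against 34024 to 36064 in air. That sum is mostly Chil3, at 17886 to 21115 CPM at 72 h against 22245 to 24837 in air. Not all of the list were lower. Ctsk was at 538 to 684 CPM at 72 h against 415 to 491 in air, and Car4 at 561 to 661 against 303 to 532. The part of these cell types in the level of Mfge8 was not tested.

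Neither integrin subunit was called in any comparison. Itgav had 67.1, 58.7 and 57.9 CPM in the air libraries, 69.5, 50.6 and 57.4 in those at 24 h, and 63.6, 67.3 and 69.1 in those at 72 h, all overlapping. Itgb5 had 243, 249.7 and 242 CPM in the air libraries, 264, 201 and 250.5 in those at 24 h, and 222, 247 and 261 in those at 72 h, again overlapping. Their log2 fold changes against air were -0.05 and -0.04 at 24 h, and 0.12 and -0.01 at 72 h (SE 0.11 each), with adjusted p from 0.511 to 0.965. Itgb5 exceeded Itgav 10.6 to 13.2-fold in TPM in every library. Itgav overlaps the opposite-strand transcript Gm13684 over 634 exon bases (5.9%).

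Stab1 was a low transcript whose level at 72 h was set by 1 library above all. It had 1.71, 1.22 and 1.56 CPM in the air libraries, 1.56, 4.17 and 1.33 in those at 24 h, and 12.3, 3.09 and 2.98 in those at 72 h. All 72 h libraries lay above all air libraries, and the 12.3 CPM was from 72 h replicate 1, which carried B cell and serous cavity markers. Marker sums of other cells were also higher in all 3 libraries at 72 h than in air. They were 5.91 to 28.4 CPM against 0.492 to 1.71 in air for endothelium and fibroblast, and 3005 to 5405 against 1354 to 1906 for serous cavity macrophages. Endothelial cells are known to carry Stab1. In 72 h replicates 2 and 3, Pecam1 was 0.386 and 0.877 CPM against 0.276 to 0.815 in air. Kdr was 0.442 and 0.285 against 0.0169 to 0.715, and Cdh5 0.0736 and 0.0612 against 0 to 0.0166. Col1a1 was 1.44 and 1.77 against 0.0169 to 0.0832. The serous cavity sum is mostly Fn1, and Prg4 was 0.736 and 1.24 CPM there against 0.689 to 0.832, while Thbs1 lay above air. The part of these cells in the level of Stab1 was not tested. The log2 fold change at 72 h against air was 2.03 ± 0.67 (0.47 to 3.59), or 4.08-fold, not called by edgeR (adjusted p = 0.114) and called by DESeq2 (2.03, adjusted p = 0.0153).

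Without 72 h replicate 1, Stab1 at 72 h against air was 1.02. Without the pair that stood apart it was 1.04 and was called (adjusted p = 0.0219), and without these and air replicate 2 it was 0.91 and not called (adjusted p = 0.0589). Between 72 h and 24 h it was 1.38 ± 0.66 (adjusted p = 0.190) with all libraries and 0.37 without 72 h replicate 1. Without the pair it was 1.09 and called (adjusted p = 0.0199), and so it was without air replicate 2 as well (1.08, adjusted p = 0.0256). A stretch of 112 of its exon bases (1.09%) overlaps Nt5dc2 on the opposite strand.

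Cd300lf was higher at 72 h than at 24 h. It had 378, 307 and 293 CPM in the air libraries, 271, 201 and 262 in those at 24 h, and 344, 336 and 327 in those at 72 h. The 24 h libraries were the 3 lowest, below both other groups, and air and 72 h overlapped. The mean was 336 ± 8.61 CPM at 72 h and 245 ± 38 at 24 h (SD, n = 3 each), a log2 fold change of 0.46 ± 0.13 (0.16 to 0.75) or 1.37-fold with an adjusted p of 0.0428. At 24 h it was 245 ± 38 CPM against 326 ± 45.3 in air, a log2 fold change of -0.41 ± 0.13 (-0.71 to -0.12) that was not called (unadjusted p = 0.0118, adjusted p = 0.230; DESeq2 adjusted p = 0.0544). Between 72 h and air it was 0.04 ± 0.13 (adjusted p = 0.859).

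The Cd300lf call at 72 h against 24 h was also near the threshold. Without the pair of libraries that stood apart it was 0.34 (adjusted p = 0.0749), and without these and air replicate 2 it was 0.33 (adjusted p = 0.0949). Of the 9 fits that left out 1 library, 1 kept it, that without air replicate 1 (adjusted p = 0.0482). Leaving out any of the other 8 ended it (adjusted p 0.0553 to 0.150), and the joint test did not call Cd300lf (adjusted p = 0.0744).

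**Figure D3:**
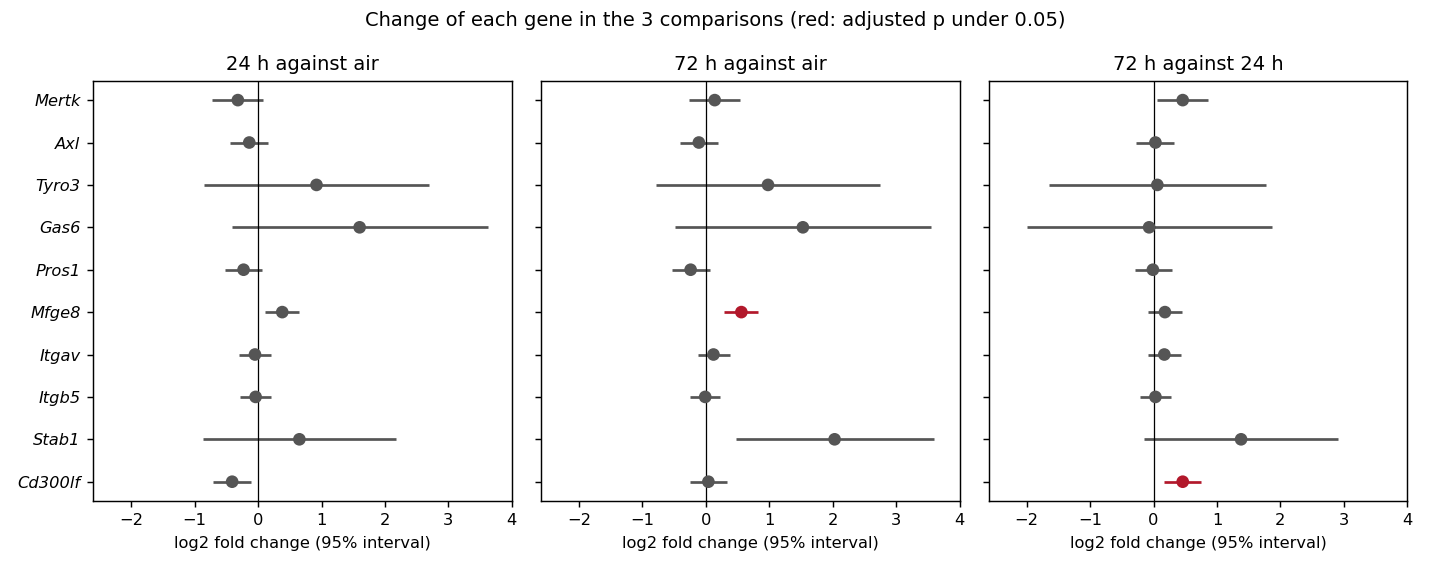
Log2 fold change of each gene with its 95% interval in the 3 comparisons, with red for adjusted p under 0.05. Mfge8 at 72 h against air and Cd300lf at 72 h against 24 h are the 2 red points, and the intervals of Tyro3, Gas6 and Stab1 are the widest.

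Counted over the 10 genes, few were called. At 24 h against air 0 of 10 were called by edgeR, against 0.00636% of all genes (1 of 15713), with 2 of 10 at an unadjusted p under 0.05 (2314 of 15713 over all genes) and 0 of 10 by DESeq2 and by limma voom. At 72 h against air 1 of 10 was called against 5.47% of all genes, and at 72 h against 24 h 1 of 10 against 18.2%. Groups did not overlap for 2 of 10 at 24 h against air (19.4% of all genes), 4 of 10 at 72 h against air (39.5%) and 3 of 10 at 72 h against 24 h (37.6%). The median log2 fold change of the 10 was -0.04, 0.13 and 0.12 in these comparisons, beside 0.01, -0.01 and -0.03 over all genes tested. The comparisons with air share the air libraries, and those with 24 h share the 24 h libraries.

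In the libraries that stood apart, the members moved apart from each other. In 24 h replicate 2, 6 of 10 were the lowest of their group and 4 the highest. Mertk was at 0.618, Axl at 0.738 and Cd300lf at 0.754 times the mean of the other libraries of the group, beside 0.759 for the alveolar macrophage marker sum. Gas6 stood at 8.07 times, Tyro3 at 5.31 times and Stab1 at 2.89 times. In 72 h replicate 1, Pros1 was at 0.776 and Axl at 0.875 times, beside 0.848 for the marker sum, while Stab1 was at 4.06 times, Gas6 at 2.67 times and Tyro3 at 2.46 times. Mfge8 stood at 1.07 and 0.975 times, close to the other libraries. The part of other cell types in these values was not tested.

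**Figure D4:**
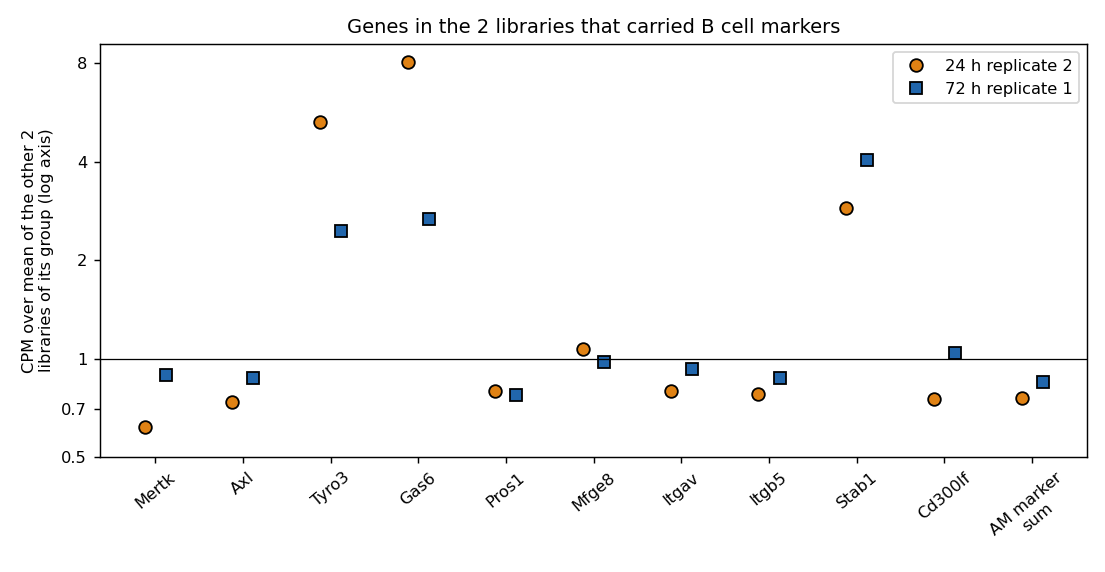
CPM of each gene, and of the summed alveolar macrophage (AM) markers, in 24 h replicate 2 and 72 h replicate 1 over the mean of the other 2 libraries of its group (log axis). Gas6, Tyro3 and Stab1 lie well above 1 in both, and Mertk, Axl and Pros1 below it.

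Other genes of the uptake pathway were taken from 7 lists holding 108 genes, of which 100 were tested. Of the 100, 0 were called at 24 h against air. The comparison of 72 h with air gave 2 higher and 0 lower, and at 72 h against 24 h 6 were higher and 3 lower, with medians of -0.01, 0.04 and 0.03 in the 3 comparisons. Over all 15713 genes tested, 268 were higher and 592 lower at 72 h against air (5.47% called), and 847 were higher and 2008 lower at 72 h against 24 h (18.2% called). The counts of the single lists stand beside these same shares. Their medians differed. At 72 h against air the median was 1.35 for bridging molecules and opsonins, 0.25 for other receptors and -0.10 to 0.10 for the rest. Some bridging molecules were high mainly in 72 h replicate 1, such as C1qb at 78.6 CPM against 4.84 and 5.4 in the other 72 h libraries. List medians ran from -0.06 to 0.20 at 24 h against air and from -0.20 to 0.24 at 72 h against 24 h.

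Among 17 tested other receptors, 1 was called, Scarf1, a scavenger receptor that binds C1q on dying cells. It averaged 4.74 ± 0.844 CPM at 72 h and 2.99 ± 0.542 at 24 h (SD, n = 3 each), a log2 fold change of 0.67 ± 0.18 (adjusted p = 0.0378). The most abundant ones, the low-density lipoprotein receptor relative Lrp1 and the integrin subunit Itgb2, were at 0.25 ± 0.18 and 0.08 ± 0.11 at 72 h against air, neither called (adjusted p = 0.400 and 0.677).

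Among 13 tested bridging molecules and opsonins, Sftpd, the lung collectin surfactant protein D, rose to 2.09 to 2.75 CPM at 72 h against 0.65 to 1.27 in air (log2 fold change 1.35 ± 0.27, adjusted p = 0.0326) and against 0.939 to 1.33 at 24 h (1.15 ± 0.27, adjusted p = 0.0223). Its 3 libraries at 72 h lay above the other 6. C3, the central complement protein, averaged 424 ± 13.8 CPM at 72 h and 284 ± 41.4 at 24 h (SD, n = 3 each; 0.58 ± 0.15, adjusted p = 0.0298). The sum of lung epithelium markers, cells that are known to make Sftpd, was 232 to 266 CPM in air, 228 to 318 at 24 h and 229.9 to 288 at 72 h, with all 10 markers detected in every library. That sum is mostly Epcam, Cdh1 and Scgb1a1, and 5 of the other markers moved with Sftpd, with every 72 h library above the other 6. Cldn18 had 7.76 to 14.4 CPM at 72 h against 0.571 to 0.981 in air, Krt8 5.58 to 8.03 against 0.532 to 0.761, and Krt18 4.16 to 6.67 against 0.482 to 0.551. Ager had 3.46 to 4.79 CPM at 72 h against 0.847 to 1.4 in air, and Aqp5 2.26 to 3.04 against 0.217 to 0.677. The surfactant genes of the list did not separate in this way. Sftpc had 6.61 to 9.88 CPM at 72 h against 3.9 to 7.42 in air, and Sftpa1 2.21 to 3.99 against 1.61 to 2.88, both overlapping. The part of epithelial cells in the level of Sftpd was not tested.

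Among 16 tested genes of the engulfment machinery, Vav3, a guanine nucleotide exchange factor, had 20.8 to 21.3 CPM at 72 h against 13.2 to 16.8 in air (0.45 ± 0.09, adjusted p = 0.0331) and against 16 to 16.7 at 24 h (0.37 ± 0.09, adjusted p = 0.0280). Abca1, the cholesterol exporter, averaged 300.3 ± 18.7 CPM at 72 h and 187 ± 44.3 at 24 h (SD, n = 3 each; 0.69 ± 0.19, adjusted p = 0.0438). Of 7 tested genes of phosphatidylserine exposure, 1 was called: Atp11a, a flippase, averaged 96.8 ± 5.49 CPM at 72 h and 63.1 ± 12.3 at 24 h (SD, n = 3 each; 0.62 ± 0.15, adjusted p = 0.0240).

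Of 15 tested genes of nuclear receptors, feedback and metabolism after uptake, 3 were lower at 72 h than at 24 h. Odc1, the first enzyme of polyamine synthesis, averaged 56.3 ± 2.69 CPM at 72 h and 90.9 ± 12.1 at 24 h (SD, n = 3 each; -0.69 ± 0.10, adjusted p = 0.00669). The glucose transporter Slc2a1 was at -0.41 ± 0.09 (adjusted p = 0.0175) and the lactate transporter Slc16a1 at -0.48 ± 0.13 (adjusted p = 0.0391). Slc2a1 averaged 17.1 ± 1.51 CPM in air, 26.9 ± 1.47 at 24 h and 20.3 ± 1.59 at 72 h (SD, n = 3 each). Slc16a1 averaged 36.7 ± 6.41, 48.7 ± 5.58 and 35 ± 2.47, and Odc1 73.2 ± 5.67 in air. None of the 3 was called against air. Of 20 tested genes of phagosome maturation and corpse digestion, 0 were called in any comparison; the lysosomal proteases Ctsd and Ctsb were at 0.08 ± 0.12 and 0.04 ± 0.09 at 72 h against air. Of 12 tested genes of find-me receptors, don't-eat-me signals and receptor shedding, 0 were called either; Sirpa and its ligand Cd47 were at -0.12 ± 0.13 and -0.23 ± 0.10.

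Of these 9 genes, Odc1 held at 72 h against 24 h in all 9 fits that left out 1 library, Slc2a1 in 7 and Sftpd in 6. Atp11a held in 4, C3, Vav3 and Slc16a1 in 3 each, Scarf1 in 1 and Abca1 in 0. Sftpd and Vav3 at 72 h against air held in 1 each. Without the pair of libraries that stood apart, 4 genes were no longer called at 72 h against 24 h. Vav3 kept its log2 fold change of 0.37 (adjusted p = 0.0624), while Abca1 was at 0.58 (adjusted p = 0.0585), Scarf1 at 0.51 (adjusted p = 0.110) and Slc16a1 at -0.37 (adjusted p = 0.155).

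**Figure D5:**
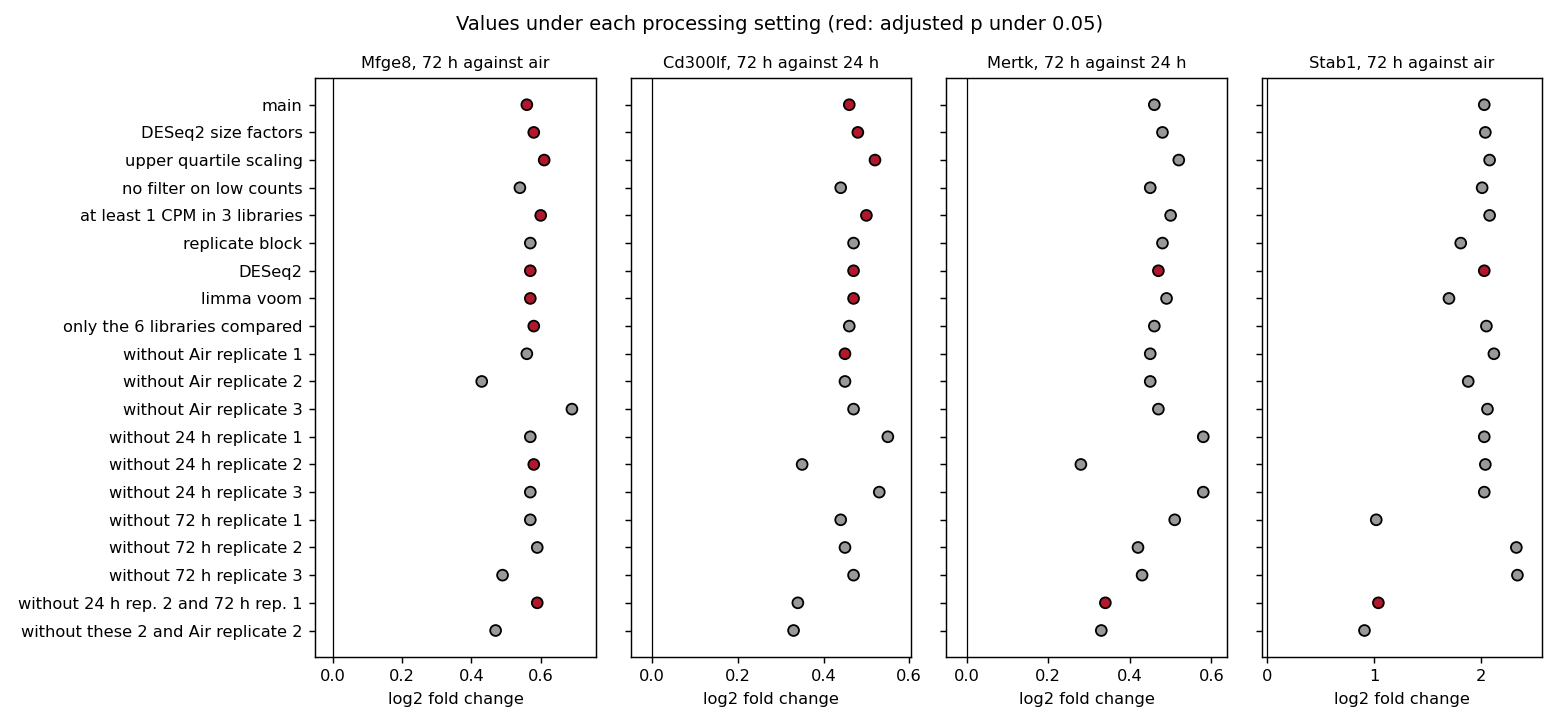
Log2 fold change of Mfge8 and Stab1 at 72 h against air and of Cd300lf and Mertk at 72 h against 24 h, with the settings reported (row "main") and under each alternative, with red for adjusted p under 0.05. All values of the 4 genes are positive, at 0.43 to 0.69 for Mfge8 at 72 h against air and 0.33 to 0.55 for Cd300lf at 72 h against 24 h, and these were called in 8 and 6 of the 19 alternatives, while Mertk and Stab1 were called in 2 each.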

How the data were processed

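Lung macrophage RNA of 9 mice was sequenced. The authors deposited 1 table of unscaled estimated counts for each gene, of which 80.5% were whole numbers. Per the submitters' processing notes, Trimmomatic 0.39, FastQC, Salmon and DESeq2 were used on GRCm38.p6, and per the labels' protocols a stranded total RNA kit and red cell lysis. Neither the annotation release nor the use of strand in counting is stated in these sources. Symbols, positions and exon lengths came from GENCODE M21 (54107 of 54281 identifiers matched).

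Counts were rounded, filtered with filterByExpr and scaled by TMM in edgeR 4.0.16 (R 4.3.3). All 9 libraries entered 1 robust quasi-likelihood fit, with Benjamini-Hochberg adjustment over the 15713 genes tested, and a gene is called at an adjusted p under 0.05. The SE is the size of the log2 fold change over the square root of F. The procedure was tested on simulated data with known answers. DESeq2 1.42.0, limma 3.58.1 (voom), other scalings and filters, and fits leaving out libraries were alternatives. No library was a copy of another of its group, and pairs across groups were not checked for this. The labels do not say whether mice of a group were exposed or processed separately. No column was left unmapped.

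All 10 members are named. Of other lists, up to 3 called genes per comparison are named, or the 2 most abundant where none was called, with examples at 72 h against air. The members and lists were chosen with earlier results of these data known, as was the choice of fits without libraries that stood apart. Promoter sequences came from RefSeq (all 10 matched).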

Additional observations from a re-analysis of the deposited data

Results flagged for a closer look

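Levels differed between the 72 h and 24 h ozone groups for these genes by a direct test, the edgeR contrast of 72 h against 24 h (adjusted p under 0.05). The air group was not split by time, so this contrast cannot tell an effect of ozone from one of time alone. Positive log2 fold changes mean higher at 72 h. Cd300lf differed by 0.46, Scarf1 by 0.67, Sftpd by 1.15, C3 by 0.58 and Vav3 by 0.37. Abca1 differed by 0.69 and Atp11a by 0.62. In the other direction, Slc2a1 stood at -0.41, Slc16a1 at -0.48 and Odc1 at -0.69. Of the 9 fits that left out 1 library, all 9 kept the call of Odc1, 7 that of Slc2a1 and 6 that of Sftpd. The call of Atp11a was kept in 4, those of C3, Vav3 and Slc16a1 in 3 each, those of Cd300lf and Scarf1 in 1 each and that of Abca1 in 0.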

How the results depend on the processing

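Of 560 recomputed values of the 10 members, 476 kept direction and call, 24 kept direction and lost the call, 6 gained it and 54 changed sign. At 24 h against air 0 members were called in any alternative. Elsewhere 1 member was called with the settings reported. No filter on low counts gave 0 in the pairwise comparisons at 72 h and in the joint test, and DESeq2 gave 2 at 72 h against air, 2 at 72 h against 24 h and 3 jointly. Using only the 6 libraries compared gave 0 at 72 h against 24 h. Without the pair of libraries carrying B cell markers 2 were called in each, and without air replicate 2 as well 0 at 72 h against air. Leaving out 1 library gave 0 to 1 in each. With the replicate block 0 members were called in each comparison. Deviations of same-numbered libraries from their group means correlated at r of 0.17, -0.17 and -0.17 at 24 h against air. At 72 h against air r was -0.16, 0.10 and -0.09, and at 72 h against 24 h -0.54, -0.61 and 0.48. In that last comparison the pair carrying B cell markers correlated at 0.73 and bears on the other values. These values therefore cannot decide whether the numbers mark a pairing.

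Over all genes, 72 h against air gave 860 calls, against 506 with DESeq2 size factors, 299 with upper quartile scaling, 270 unfiltered, 459 at 1 CPM in 3 libraries, 35 with the replicate block, 1890 with DESeq2, 382 without the 3 libraries in doubt and 7 to 1625 leaving out 1. At 72 h against 24 h, 2855 became 1696 unfiltered, 1474 with the block, 1907 with 6 libraries, 1618 without the 3 libraries and 340 to 2499 leaving out 1. Jointly, 2081 became 1167 unfiltered, 106 with the block, 3551 with DESeq2, 724 without the 3 libraries and 15 to 2232 leaving out 1. At 24 h against air, 1 became 580 with DESeq2, 7 without the pair, and 0 unfiltered, with the block and with 6 libraries, or 0 to 2 leaving out 1.

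Signs changed for values near 0 or resting on the pair; the cause was not tested. Without the pair, log2 fold changes at 24 h against air were -0.35 for Tyro3, -0.13 for Gas6, -0.05 for Stab1, 0.05 for Itgav and 0.07 for Itgb5, and without air replicate 2 as well -0.01 for Gas6, -0.17 for Stab1, 0.03 for Itgav, 0.09 for Itgb5 and 0.02 for Axl. Between 72 h and 24 h Axl was -0.02 in both, Gas6 1.05 in both, Pros1 0.03 and 0.02, and Itgb5 -0.0032 without all 3. Gas6 there was 0.38 with the block and 0.48 with limma voom. Pros1 was 0.02 with DESeq2 size factors, 0.05 with upper quartile scaling, 0.03 at 1 CPM and 0.01 with DESeq2. Itgb5 at 72 h against air was 0.01, 0.04, 0.04 and 0.00016 in these 4, 0.01 with 6 libraries, and 0.08 and 0.09 without the pair and without all 3. Leaving out 1 library gave, at 24 h against air, Tyro3 -0.35 to 1.47, Gas6 -0.14 to 2.02, Stab1 -0.05 to 0.92, Itgav -0.19 to 0.05 and Itgb5 -0.12 to 0.07. It gave Cd300lf -0.02 to 0.15 and Itgb5 -0.08 to 0.05 at 72 h against air. At 72 h against 24 h it gave Axl -0.08 to 0.17, Tyro3 -0.51 to 1.34, Gas6 -0.7 to 1.68, Pros1 -0.09 to 0.11 and Itgb5 -0.06 to 0.12. Tyro3 and Gas6 were not tested at 1 CPM in 3 libraries, so these have no value there; depth limits both.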

Other observations

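Among other receptors and bridging molecules, 3 genes chosen after their values were seen stood high in the pair of libraries that carried B cell markers. Not all did: Lrp1 was at 1521 CPM in 24 h replicate 2, the lowest of the 9 libraries, and at 2859.8 in 72 h replicate 1, against 2346 to 2948 in the other 7. Timd4, the TIM-4 receptor of peritoneal macrophages, had 24.4 CPM in 24 h replicate 2 and 22.4 in 72 h replicate 1, against 1.24 to 3.5 in the other 7 libraries. C1qa, a chain of the complement opsonin C1q, had 69.6 and 66.9 CPM in these, against 3.41 to 5.99 elsewhere. Thbs1, the thrombospondin bridge to Cd36, had 105 and 129.9 CPM, against 11.5 and 13.4 in the other 72 h libraries and 1.42 to 2.84 in the remaining 5.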
